A study of Mus musculus with 10 samples.

Results

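LT-HSCs, the long-term hematopoietic stem cells, were sorted as LSK CD48-CD150+ cells from mouse fetal liver at E14.5 and profiled for H3K27me3 by CUT&Tag. In this assay an antibody guides the transposase Tn5 to a chromatin protein, so that sequenced fragments mark where that protein lies. WT embryos gave 3 libraries and IκBα KO embryos, in which the NF-κB inhibitor encoded by Nfkbia is knocked out, gave another 3. No other allele or treatment is given in the labels. Replicates 1 and 2 of each genotype were read with 75 bp reads and replicate 3 with 50 bp reads. The peak lists hold no measure of Nfkbia expression, so the genotypes rest on the labels. Per the study, each genotype was represented by several embryos from more than one independent experiment. Which embryos and which experiment lie behind each library is not given in the sources used here, and p-values therefore measure the spread between these libraries only.

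The regions described here lie inside protein-coding genes and away from their promoters. They were chosen by merging the peaks of the 4 libraries of replicates 1 and 2. A merged region was kept when at least 2 of these libraries had a peak in it. Intragenic regions were those under 12000 bp that overlapped a protein-coding gene body but no promoter of any protein-coding gene, a promoter reaching from 5 kb before to 100 bp after a transcription start site (TSS). The rule gave 641 intragenic regions, 13.9% of the 4611 merged regions kept out of 6929 in all. The other narrow regions were 2564 at promoters and 875 outside coding genes, and 531 regions of 12000 bp or more were called broad. Peaks of replicate 3 played no part in the choice.

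H3K27me3 is laid down by Polycomb repressive complex 2 (PRC2) and marks genes that are kept silent. In mammals PRC2 is found above all at CpG islands, which are stretches rich in unmethylated CpG dinucleotides that overlap many promoters, and the mark can spread from there into gene bodies. Developmental transcription factors, signalling ligands and neuronal genes are well-known carriers of the mark in blood cells.

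The peak lists differed in depth. The libraries of replicates 1 and 2 had 4160 to 6013 peaks, whereas replicate 3 had 1047 peaks in WT and 2325 in KO. The median peak had a maximum signal, the highest number of overlapping fragments, of 6 to 10. Of 10 genes that mark LT-HSCs, among them Kit, Procr, Mecom and Runx1, none had a peak in any library at its promoter or body, and neither did any of 5 hepatoblast genes. In contrast, Ebf1, Pax5 and Bcl11b, regulators of B and T cells, and the mesenchymal receptor gene Pdgfra had a peak in all 6. The mark shows genes that are silent, so these lists do not measure the purity of the sort.

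To show what the sequence under these regions looks like, 300 bp windows around the point of highest signal are printed for 5 regions called in all 4 libraries of replicates 1 and 2. They come from the 3 with the highest maximum signal among windows that met the base composition of a CpG island (GC of at least 50% and a CpG observed/expected ratio of at least 0.6), of which 2 are shown, and from the 3 with the highest among windows that did not. All are the plus strand of GRCm38.p6 (RefSeq), 5′ to 3′, with CpG dinucleotides in capitals. In the first set, the Sp8 window (chr12:118855096-118855395) lay beyond the 3′ end of the gene, with the region reaching back into it. The Chst5 window (chr8:111890245-111890544) overlapped coding sequence.
Sp8: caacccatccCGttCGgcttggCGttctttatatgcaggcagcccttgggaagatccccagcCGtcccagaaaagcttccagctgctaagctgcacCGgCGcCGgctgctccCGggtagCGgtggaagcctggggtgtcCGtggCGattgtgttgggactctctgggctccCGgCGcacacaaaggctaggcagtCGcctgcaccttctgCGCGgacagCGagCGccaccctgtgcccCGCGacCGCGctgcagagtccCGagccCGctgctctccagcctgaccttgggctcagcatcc
Chst5: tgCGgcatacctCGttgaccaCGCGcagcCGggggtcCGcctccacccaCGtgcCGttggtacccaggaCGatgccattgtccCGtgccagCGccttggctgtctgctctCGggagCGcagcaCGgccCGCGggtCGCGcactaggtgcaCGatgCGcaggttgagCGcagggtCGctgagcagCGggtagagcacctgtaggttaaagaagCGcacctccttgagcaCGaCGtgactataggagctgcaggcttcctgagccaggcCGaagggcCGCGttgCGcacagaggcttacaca
These windows held 24 and 30 CpG. The 3 windows of the second set were intronic, in Asb18 (chr1:89969193-89969492), in the gene model Gm20388 (chr8:121316853-121317152) and in Osbp2 (chr11:3761418-3761717).
Asb18: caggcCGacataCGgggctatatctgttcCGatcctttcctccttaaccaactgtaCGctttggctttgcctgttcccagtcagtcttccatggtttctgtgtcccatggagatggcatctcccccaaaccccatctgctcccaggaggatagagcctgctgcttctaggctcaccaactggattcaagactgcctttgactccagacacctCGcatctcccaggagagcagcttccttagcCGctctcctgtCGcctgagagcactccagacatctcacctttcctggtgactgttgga
Gm20388: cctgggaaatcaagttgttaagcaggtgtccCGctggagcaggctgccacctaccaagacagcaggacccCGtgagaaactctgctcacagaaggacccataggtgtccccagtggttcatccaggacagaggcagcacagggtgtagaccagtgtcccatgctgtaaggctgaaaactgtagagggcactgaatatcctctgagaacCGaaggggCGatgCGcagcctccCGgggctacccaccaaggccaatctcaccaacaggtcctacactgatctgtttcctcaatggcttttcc
Osbp2: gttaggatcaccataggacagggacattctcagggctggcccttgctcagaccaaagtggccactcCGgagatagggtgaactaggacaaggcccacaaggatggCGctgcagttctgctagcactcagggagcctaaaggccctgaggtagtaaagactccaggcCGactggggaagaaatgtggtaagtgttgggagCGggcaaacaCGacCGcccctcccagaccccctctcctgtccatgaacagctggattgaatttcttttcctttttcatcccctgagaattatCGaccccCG
They held 7, 6 and 8 CpG. The maximum signal was of like size in both sets, 19 and 17 in the first and 17 to 19 in the second. The Sp8 region had a peak in both replicate 3 libraries, with a maximum signal of 8 in WT and 21 in KO, and the Chst5 region had one in KO replicate 3 only (12). The Asb18 and Gm20388 regions had none in either, and the Osbp2 region had one in both (5 and 15). The Asb18 and Osbp2 regions held a CpG island elsewhere along their length, and the Gm20388 region held none.

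The intragenic regions were mostly intronic and lay far from start sites. The point of highest signal fell in an intron in 512 of 641 regions, in coding sequence in 58, in a UTR in 38 and in a noncoding exon in 3, and in 30 regions it lay beyond the gene body that the region overlapped. As whole regions, 289 (45.1%) overlapped coding sequence. The median distance from the point of highest signal to the nearest coding TSS was 17305 bp, and 69 regions had one within 5000 bp. Regions were found all along genes, with 187, 197 and 227 in the first, middle and last of 3 equal parts of the gene body. The median width was 4845 bp, with quartiles of 3658 and 6583 bp. At the width limit, the widest regions kept lay in Mical2 (11961 bp) and Eml1 (11999 bp), and the narrowest of 47 regions left out by width alone lay in Eml1 (12099 bp) and Sdk2 (12266 bp).

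Host genes usually carried the mark at their promoter as well. The regions overlapped 445 coding genes, 2.03% of the 21951 annotated. Counting each gene once, the median length was 64.4 kb for host genes and 17.4 kb over all coding genes. Longer genes offer more room for a region, and per region the median host length of 106.7 kb lay below the median of all coding genes weighted by their length (138.6 kb). A promoter of the host gene held a kept region for 476 of 641 regions (74.3%). Counted by gene, 307 of 445 host genes (69.0%) had a kept region at a promoter, compared with 13.5% of all coding genes. The next kept region was within 5000 bp for 240 intragenic regions and at a median of 10091 bp, and it was a promoter region for 282, another intragenic region for 235 and a broad region for 104. The remaining 165 regions, for which no promoter of the host gene held a kept region, included those in Zfp648 and B3gnt6 that were called in all 6 libraries. Per 100 Mb of sequence of each kind there were 71.1 intragenic, 57.7 outside and 1188 promoter regions.

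The gene with the most regions was a gene model rather than a typical gene. Gm20388 spans 4434.9 kb of chromosome 8 (chr8:119910841-124345722) and is the longest coding gene of the annotation, overlapping 73 other coding genes. It held 30 regions, of which 25 lay in no other coding gene, and these 25 count as intragenic through this model alone. Next came Apbb2, an adaptor of the amyloid precursor protein, with 8 regions, and Bcas3, the kainate receptor gene Grik3 and the zinc finger gene Zbtb7c with 6 each. By contrast, 346 genes held 1 region.

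Among the gene lists examined, calcium and sodium channels had the largest share of genes with such a region. Of 44 calcium and sodium channel genes 13 (29.5%) held an intragenic region, with Cacna1g, a T-type calcium channel gene, called in all 6 libraries and Cacna1a and Cacng7 in 5. Potassium channels (9 of 94 genes), Wnt and Frizzled genes (4 of 42), neurotransmitter receptors (6 of 65), synaptic and cell adhesion genes (6 of 64), homeobox and T-box factors (11 of 121) and axon guidance genes (7 of 79) stood at 8.86% to 9.57%. Many of these genes are long, and the shares were not adjusted for length. Collagens (3 of 44) and the FGF and BMP pathway (3 of 57) stood at 6.82% and 5.26%, a difference of few genes from those lists that was not tested. The zinc finger Zfp genes (8 of 397) were at the level of all coding genes, and 0 of 58 ADAM and ADAMTS proteases held a region. In the Wnt group, Wnt3 held 3 regions, of which 1 was called in all 6 libraries, 1 in 4 and 1 in 2. Among homeobox and paired-box genes, the most widely called region was called in 5 libraries at Pax3 and at Pax5. At Pax7 and at Pax1 it was called in 4. Pax3 and Pax7 held 4 regions each and Pax5 held 2.

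Genes of the blood system and of the pathways that the study addressed are read against the 2.03% of all coding genes that held an intragenic region. Of 38 regulators of blood lineages only Pax5, the factor of B cell commitment, held any (2.63%). One of them (chr4:44657934-44668320) was called in all libraries but WT replicate 3, where the maximum signal was 8 and 10 in the WT libraries and 10, 11 and 13 in KO replicates 1, 2 and 3. The other (chr4:44559485-44564684) was called in WT replicate 2 and KO replicate 2 only. Among 21 retinoic acid genes only Aldh1a2, an enzyme that makes retinoic acid, held a region (4.76%), called in WT replicate 1 and both KO libraries of replicates 1 and 2. No NF-κB pathway gene (0 of 21) and no PRC2 or PRC1 subunit gene (0 of 28) held one. At the share of all coding genes, lists of this size would hold fewer than 1 such gene each, so counts of 0 and 1 do not set them apart. Direct repeats of the retinoic acid receptor half-site, on either strand with a spacer of 1, 2 or 5 bp, were matched in 13.4% of intragenic, 10.5% of promoter, 10.5% of outside and 26.7% of broad regions. Longer regions hold more matches by length alone. Per kb of sequence the order was another, with 0.0284 matches in intragenic, 0.0224 in outside, 0.0195 in promoter and 0.0187 in broad regions. Among intragenic regions the value was 0.0328 in those called in 2 of 4 libraries and 0.0323 in 3. In those called in 4 it was 0.02235, near the value of outside regions. Unmarked gene sequence was not scanned, and the differences were not tested. A match is not a binding site.

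Intragenic regions were called less evenly between libraries than promoter regions. Of the 641 regions, 268 had a peak in 2 of the 4 libraries of replicates 1 and 2, 175 in 3 and 198 (30.9%) in 4. The share called in all 4 was 60.7% at promoters, 31.7% outside genes and 99.1% for broad regions. WT replicate 2, the library with the most peaks, had a peak in 551 intragenic regions, and WT replicate 1, KO replicate 1 and KO replicate 2 had one in 358, 454 and 490. A further 723 narrow intragenic regions had a peak in only 1 library and were left out, 416 of them in WT replicate 2.

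**Figure D1:**
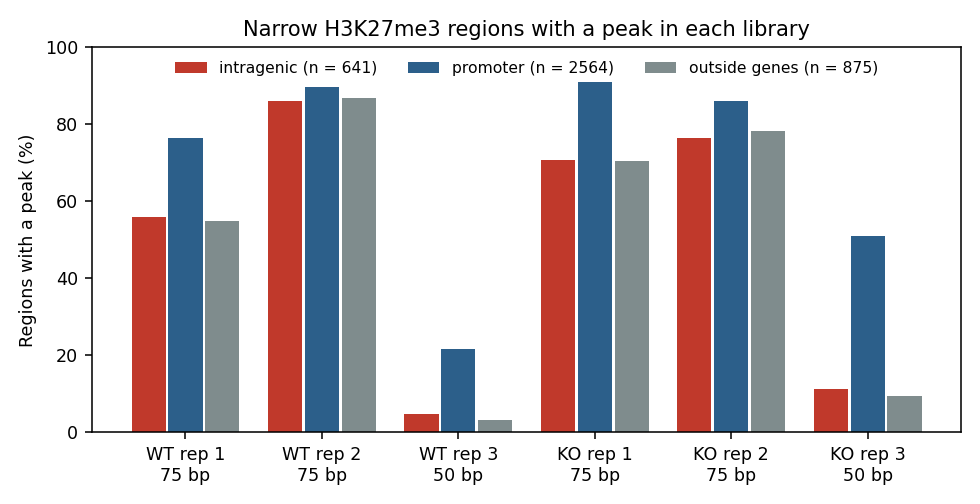
Percent of narrow H3K27me3 regions (vertical axis) with a peak in each of 6 libraries (horizontal axis, with genotype, replicate and read length), for intragenic (red), promoter (blue) and outside regions (grey). Bars of replicates 1 and 2 are a description, since these libraries chose the regions. In replicate 3, which did not, 4.84% (WT) and 11.2% (KO) of intragenic regions had a peak, against 21.8% and 50.9% of promoter regions.

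Replicate 3 gave a reading that the choice of regions had not used. A peak was found at 31 of 641 intragenic regions in WT replicate 3 (4.84%, 95% Wilson interval 3.43 to 6.78) and at 72 in KO replicate 3 (11.2%, 9.02 to 13.9). Promoter regions had one in 21.8% (20.2 to 23.4) and 50.9% (49.0 to 52.9), and outside regions in 3.20% (2.22 to 4.59) and 9.49% (7.72 to 11.6). Thus in both libraries the intervals of intragenic and promoter regions did not overlap, whereas those of intragenic and outside regions did. These intervals, here and below, cover counting error over regions within 1 library. The 2 libraries shared 19 of their regions, with 12 in WT replicate 3 only and 53 in KO replicate 3 only (2.96%, 1.87% and 8.27% of 641). Over all 4611 kept regions the same shares were 16.8%, 2.54% and 24.5%. WT replicate 3 had fewer peaks in all, and depth and genotype cannot be told apart with 1 library of 50 bp reads per genotype.

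Regions of like signal were compared next. Among regions called in all 4 libraries of replicates 1 and 2, a peak was present in KO replicate 3 at 26.3% of 198 intragenic and 68.7% of 1557 promoter regions, and in WT replicate 3 at 10.1% and 30.4%. These regions were then split by their total signal, the sum of fragment coverage, into 4 equal bins set over all narrow regions. In the lowest bin the KO replicate 3 shares were 15.0% of 60 intragenic and 41.0% of 346 promoter regions. In the highest they were 51.6% of 31 and 89.0% of 438. The promoter share was the higher in all 4 bins and both libraries. In KO replicate 3 the 95% Wilson intervals were apart in all 4 bins, whereas in WT replicate 3 they overlapped in the lowest (2.62 to 15.9 against 9.86 to 17.0) and in the highest (16.1 to 46.6 against 41.3 to 50.6).

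CpG content differed strongly within the intragenic regions. CpG islands, taken as any 500 bp window with GC of at least 55% and CpG observed/expected of at least 0.65, were present in 151 intragenic regions (23.6%), in 79.6% of promoter and in 18.2% of outside regions. By the same measure, 1.35% of 163514 windows of 5000 bp in coding genes away from promoters held an island, and 5.12% of the 723 intragenic regions with a peak in only 1 library, which were narrower (median 2842 bp). The share rose with the number of libraries, from 13.1% of regions called in 2 to 18.9% in 3 and 41.9% in 4. Where an island was present, its most CpG-rich window lay at a median of 585 bp from the point of highest signal. Mean CpG density was 23.5 per kb in the 100 bp after the point of highest signal and fell to 12.9 per kb at 4950 bp, compared with 41.9 and 11.6 per kb at promoters.

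**Figure D2:**
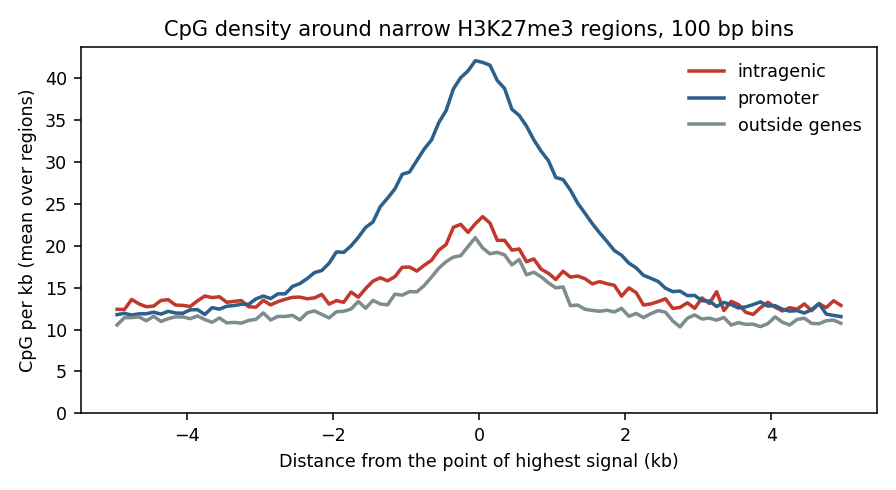
CpG dinucleotides per kb (vertical axis, mean over regions in 100 bp bins) against distance in kb from the point of highest signal (horizontal axis), for intragenic (red), promoter (blue) and outside regions (grey). All 3 lines peak at the centre, at about 23.5 per kb for intragenic, 41.9 for promoter and 19.8 for outside regions.

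Intragenic regions with a CpG island had a replicate 3 peak far more often than those without. In KO replicate 3 a peak was found at 60 of 151 regions with an island (39.7%, 32.3 to 47.7) and at 12 of 490 without (2.45%, 1.41 to 4.23). In WT replicate 3 it was found at 26 (17.2%, 12.03 to 24.0) and 5 (1.02%, 0.437 to 2.37). The intervals were far apart in both libraries. Of the 14 intragenic regions called in all 6 libraries, 13 held an island and the Cacna1g region did not. Among regions called in all 4 libraries of replicates 1 and 2, the KO replicate 3 shares were 55.4% of 83 with an island and 5.22% of 115 without, and the WT replicate 3 shares were 22.9% and 0.870%. The same split was present at promoters (74.0% and 27.4% in KO replicate 3) and outside genes (44.6% and 10.2%). With an island, the intragenic interval lay below that of promoter regions in KO replicate 3 (44.7 to 65.6% against 71.6 to 76.3%), but the intervals overlapped in WT replicate 3 (15.2 to 33.0% against 30.7 to 35.7%). Without an island, the intragenic interval lay below the promoter interval in KO replicate 3 (2.41 to 10.9% against 21.4 to 34.3%) and in WT replicate 3 (0.154 to 4.76% against 6.01 to 14.7%).

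**Figure D3:**
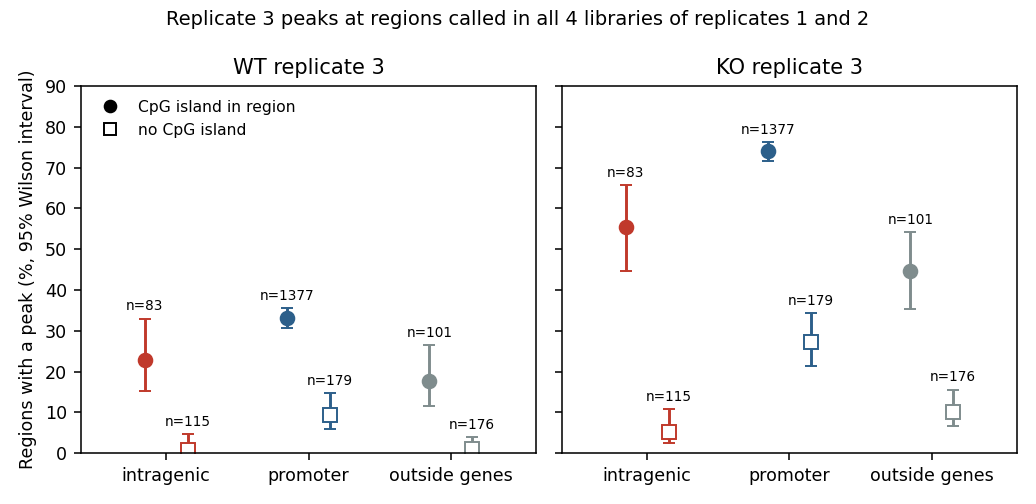
Percent of regions with a peak in WT replicate 3 (left) and KO replicate 3 (right) among regions called in all 4 libraries of replicates 1 and 2, by class (horizontal axis) and by presence (filled circles) or absence (open squares) of a CpG island, with 95% Wilson intervals and the number of regions. In KO replicate 3, intragenic regions stood at 55.4% with an island and 5.22% without.

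The presence of an island went with coding sequence and with width. Of the 151 regions with an island 114 (75.5%) overlapped coding sequence, against 35.7% of those without. The KO replicate 3 shares were 38.6% and 43.2% for regions with an island over and away from coding sequence, and 4.57% and 1.27% for those without. Regions with an island were wider (median 5483 against 4576 bp). When all intragenic regions were split into 4 equal bins by width, the KO replicate 3 share was higher with an island in every bin, from 14.8% against 1.49% in the narrowest to 50.9% against 5.61% in the widest. Regions with an island whose host promoter was marked or not marked (104 and 47 regions) had KO replicate 3 shares of 42.3% and 34.04%, with intervals that overlapped. In WT replicate 3 the order was the opposite, at 15.4% and 21.3%, again with intervals that overlapped. The base composition of the 50 bp libraries themselves cannot be read from peak lists, and its part in this difference was not tested.

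Signal was also compared within the peaks that were called. These medians cover only peaks above each library's cutoff, and in WT replicate 3 and KO replicate 3 only 5 and 12 peaks lay in regions without an island, so they cannot be set against the difference in detection. With an island, the median mean signal, the total signal divided by the width, was higher in 6 of 6 libraries, by 1.13-fold on average (exact sign-flip test over libraries, two-sided, p = 0.0313 and 0.0938 after adjustment over 3 measures). The median maximum signal was 1.10-fold higher (5 of 6 libraries, with a tie in WT replicate 3, adjusted p = 0.0938 by the same exact test) and the median width 1.10-fold higher (4 of 6, adjusted p = 0.188, exact). None passed the threshold of 0.05 after adjustment. The smallest p that 6 libraries allow is 0.0313.

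Intragenic peaks were also slightly smaller than promoter peaks. Within intragenic regions, WT replicates 1, 2 and 3 had median peak widths of 3100, 3427 and 1676 bp, and the KO replicates 3151, 3297.5 and 2606.4 bp. At promoters the WT values were 3471.5, 3858 and 1734 bp and the KO values 3863.5, 3640.5 and 2717.5 bp. Intragenic peaks were narrower in 6 of 6 libraries, at 0.903 times the promoter width. This is a description, since a wider region meets a promoter more often and the classes were set in part on these peaks. Mean signal was lower in 6 of 6, at 0.902 times (exact sign-flip test, p = 0.0313, 0.0938 after adjustment over 6 tests), and maximum signal in 5 of 6, at 0.879 times (adjusted p = 0.125, exact). Against outside regions the width ratio was 1.03, the mean signal ratio 0.994 (adjusted p = 0.825, exact) and the medians of maximum signal were the same in all 6 libraries. No difference in signal passed adjustment. Peaks of replicates 1 and 2 also chose and classed the regions, so the signal values are read as a description too.

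Regions called in all 6 libraries were few. There were 14 (2.18%), against 421 promoter regions (16.4%) and 15 outside regions (1.71%). Total signal is given here relative to the median total signal of all peaks of the same library, since it was deposited without scaling. The strongest lay in an intron of Ostm1 (chr10:42626088-42637391), which encodes a partner protein of a lysosomal chloride transporter, where WT replicates 1, 2 and 3 had 3.66, 3.77 and 0.786 and the KO replicates 3.46, 4.05 and 1.93. It was followed by an intron of Nrg2 (chr18:36062003-36073363), a ligand of ErbB receptors, where WT had 3.23, 4.01 and 1.72 and KO had 2.70, 3.02 and 1.41. At both, replicate 3 lay below replicates 1 and 2 in each genotype, and the genotypes overlapped. KO was lower in each replicate number at Nrg2 but not at Ostm1.

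The Wnt3 region (chr11:103806169-103815335), in a gene for a secreted ligand of development, had WT values of 1.93, 2.75 and 0.994 and KO values of 2.53, 3.09 and 1.45. KO was higher in each replicate number, but the ranges overlapped. Of the other regions among the 10 strongest, 6 are described, in Osbp2 (a gene of the oxysterol-binding protein family), Ttbk1 (a kinase of tau), Srcin1 (a regulator of Src kinase), Dmrt3 (a transcription factor of spinal interneurons), Gm20388 and Sp8 (a transcription factor of the limb). Across these 6 and all libraries, the values ranged from 0.725 (Dmrt3, KO replicate 3) to 3.67 (Ttbk1, WT replicate 2). KO was lower in each replicate number at the Gm20388 region and at none of the other 5, and it was higher in each at none of the 6. In none of these 9 did the 3 KO libraries all lie on one side of the 3 WT libraries. WT replicate 3 was the lowest WT library at each of the 9, and no share over all kept regions is given beside this count. The overlap is thus a description and does not measure likeness of the genotypes.

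**Figure D4:**
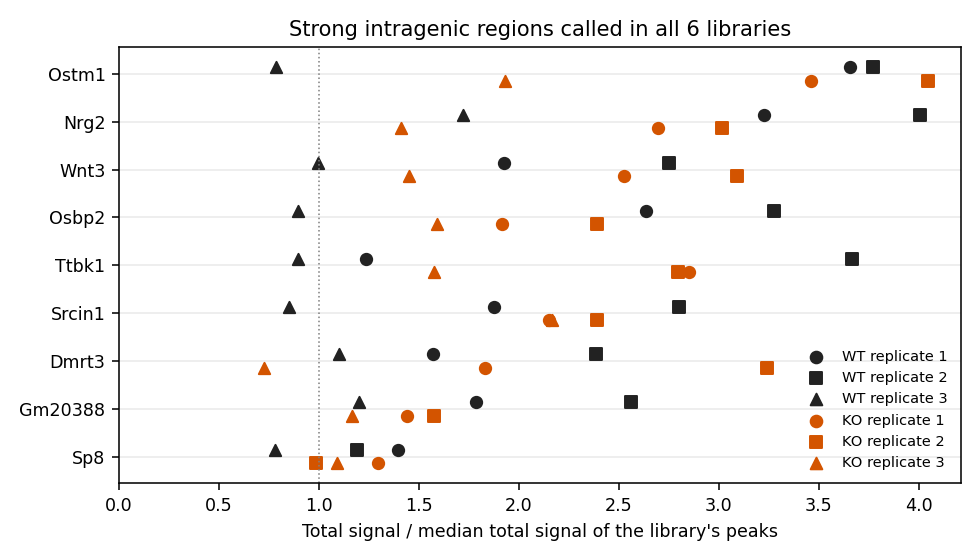
Total signal relative to the median total signal of the library's peaks (horizontal axis, dotted line at 1) for 9 of the 10 strongest intragenic regions called in all 6 libraries, named by host gene, in WT (black) and KO (orange), with symbols for replicates 1 (circle), 2 (square) and 3 (triangle). WT and KO points overlap at each of the 9 regions, and WT replicate 3 is the lowest WT point at each.

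To ask whether IκBα loss changed the mark at intragenic regions, total signal was compared between genotypes at the regions called in all 4 libraries of replicates 1 and 2. The fit covered 2558 regions of all classes, 198 of them intragenic. No intragenic region passed an adjusted p of 0.05 (limma with Benjamini-Hochberg adjustment, smallest adjusted p of 0.997), and 0 of all 2558 regions did (0.0%). At an unadjusted p of 0.05, 1 intragenic region was higher and 14 were lower in KO, that is 15 of 198 or 7.58%, where 1.76% of all regions were higher and 2.89% lower. The median log2 difference (KO minus WT) was -0.08 at intragenic, 0.02 at promoter and -0.04 at outside regions, with an interquartile range of -0.45 to 0.19 at intragenic regions. Both KO libraries lay below both WT libraries at 49 intragenic regions (24.7%, against 16.9% of all regions) and above them at 22 (11.1%, against 14.9%).

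The median of the intragenic regions was below 0 in 9 of 11 alternatives and above 0 in 2, but all drew on the same libraries. The replicate block cannot move it in this balanced design, so it repeated -0.08 and, over 6 libraries, -0.12. Over single libraries left out the intragenic median ranged from -0.24 without KO replicate 2 to 0.06 without KO replicate 1. In the latter fit 266 regions were used, and promoter and outside regions stood at 0.05 and 0.06. Without WT replicate 2 the intragenic median was -0.10, against -0.07 over all regions. With maximum signal in place of total signal it was 0.03, against 0.08 at promoters and 0.06 over all regions. The unadjusted counts then became 11 higher and 4 lower, where 4.26% of all regions were higher and 0.86% lower. The fit rested on 2 libraries per genotype, and a p that misses the threshold does not show that the genotypes were alike.

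**Figure D5:**
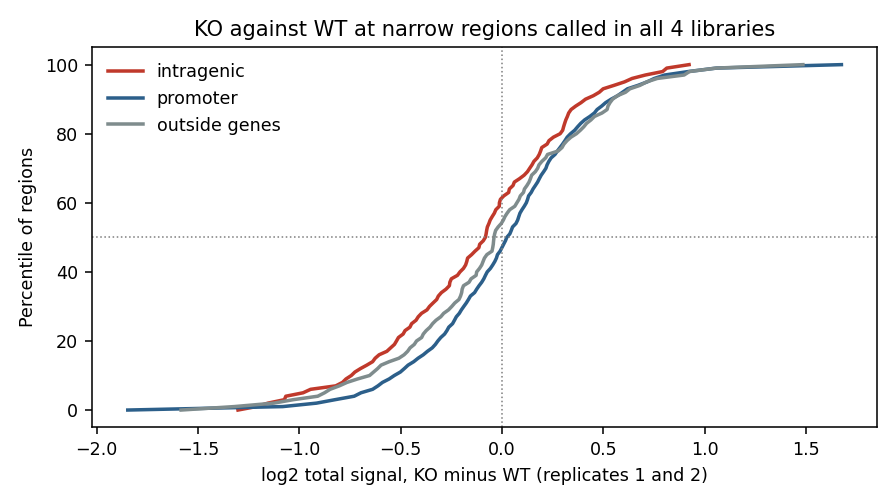
Percentile of regions (vertical axis) against the log2 difference in total signal, KO minus WT (horizontal axis, replicates 1 and 2), for intragenic (red, 198), promoter (blue, 1557) and outside regions (grey, 277) called in all 4 libraries. The median of intragenic regions is -0.08 and that of promoter regions 0.02.

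The intragenic regions with the smallest p in each direction are given as values, as none passed adjustment. An intronic region of Ptprg (chr14:11732371-11740714), a receptor tyrosine phosphatase gene, had relative totals of 1.56 and 2.20 in replicates 1 and 2 of WT, against 0.643 and 1.03 in KO (log2 difference -1.21 ± 0.36 SE, limma adjusted p = 0.997). The Ntng2 region (chr2:29193899-29199381), in the gene of the axonal adhesion protein netrin-G2, had 0.884 and 1.76 in WT against 0.562 and 0.579 in KO (-1.15 ± 0.35). The Wwtr1 region (chr3:57541418-57548752), in the gene of the Hippo pathway coactivator TAZ, had 1.57 and 1.70 in WT against 0.5996 and 0.904 in KO (-1.17 ± 0.36). At all 3, the WT libraries were above the KO libraries. With mean signal, the total divided by the width, the differences became 0.16, 0.03 and -0.17. At Ntng2 KO replicate 3 had a peak (0.776) and WT replicate 3 had none, in the opposite sense.

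In the other direction, the Asb18 region whose intronic window is printed above, and which overlapped coding sequence elsewhere, had 0.980 and 2.07 in WT against 2.85 and 2.48 in KO (0.88 ± 0.36). The regions of Isl1, a LIM homeobox gene, and of Dlgap4, a postsynaptic scaffold gene, differed by 0.80 ± 0.36 and 0.81 ± 0.42. The genotypes did not overlap at any of the 3. With mean signal the differences became 0.51 at Asb18, 0.0054 at Isl1 and -0.05 at Dlgap4, and with maximum signal 0.80, -0.05 and 0.05. A second Asb18 region, 246 bp from the first and picked out after its values were seen, differed the other way by -1.02 ± 0.31. Neighbouring stretches of one gene thus gave opposite values.

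The presence of peaks was compared as well. Of the 641 intragenic regions, 29 (4.52%) had a peak in both WT libraries of replicates 1 and 2 and neither KO library, and 36 (5.62%) the reverse. Among all 4611 kept regions these patterns made up 2.45% and 4.27%, and among outside regions 4.34% and 5.83%. With an equal number of top peaks from each of the 4 libraries 464 intragenic regions were kept, of which 31 (6.68%) had peaks in WT only and 27 (5.82%) in KO only, against 3.11% and 4.37% of all regions kept in this way. Pairs across genotypes that held WT replicate 2 were more common, with 105 intragenic regions (16.4%) called only in it and KO replicate 2 and 64 (9.98%) only in it and KO replicate 1, against 7.504% and 5.96% of all kept regions. Those that held WT replicate 1 were rarer, with 20 (3.12%) shared with KO replicate 2 and 14 (2.18%) with KO replicate 1, against 1.65% each of all kept regions. No intragenic region had a peak in all 3 WT libraries and no KO library (0.0434% of all kept regions did), and 1 had the reverse pattern (0.369% of all kept regions).

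That region lay at Snorc (chr1:87473567-87477279), a gene of a cartilage proteoglycan, with relative totals of 0.659, 1.39 and 0.908 in KO replicates 1, 2 and 3 and no peak in WT. Of the regions called in both KO libraries of replicates 1 and 2 and in no WT library, the next strongest were at Tchh (1.06 and 0.836), 3425401B19Rik (0.906 and 0.913), Eva1c (0.877 and 0.937) and Cadps (0.760 and 1.03). Those called in both WT libraries and no KO library were led by Spsb4 (1.04 and 1.33), Ebf3, a transcription factor gene (1.19 and 1.14), Grik3 (0.818 and 1.55), Cpz (0.702 and 1.60) and Gm20388 (0.740 and 1.21). These values were near the median peak of each library. The weakest peak kept in a library was 0.479 to 0.777 times its median, so that a region without a peak may hold signal just under that level.

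The share of narrow peaks that were intragenic was compared by genotype, peak by peak in each library. Replicates 1, 2 and 3 of WT gave 19.9%, 22.8% and 18.9%, and those of KO gave 18.8%, 20.8% and 11.51%. The means were 20.5% ± 2.03 (SD, n = 3) in WT and 17.0% ± 4.88 (n = 3) in KO, a difference of -3.50 percentage points (exact permutation test, two-sided, p = 0.40, smallest possible 0.1). KO was lower within each replicate number, with means of 21.4% and 19.8% in the 75 bp libraries and values of 18.9% and 11.51% in the 50 bp libraries. The difference was within the spread between replicates, and KO replicate 3 set most of it. Without that library it was -0.74 percentage points. With an equal number of top peaks from each library the means fell to 14.2% ± 4.14 in WT and 9.66% ± 2.58 in KO, a difference of -4.55 percentage points (exact permutation test, p = 0.30, n = 3 per genotype).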

How the data were processed

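Peaks were analysed from 6 H3K27me3 CUT&Tag libraries, while 4 IκBα CUT&Tag samples were not used here. Per the study's methods and the submitters' notes, the authors trimmed reads with Trim Galore 0.6.6, aligned them to GRCm38 with Bowtie2 2.4.4, removed multi-mapped, poorly mapped and duplicate reads, and called peaks per library with SEACR 1.3 (stringent, no IgG control, top 0.5% of blocks). The deposited signal values are total and maximum fragment coverage per peak, unscaled, so they rise with depth. The weakest peak kept also differs between libraries.

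Peaks were merged where they overlapped by 1 bp, and classed with GENCODE M21 gene models. Of the regions, 73 touched a promoter of a noncoding gene and 46 one of a RefSeq mRNA. Sequence came from the GRCm38.p6 genome. For the genotype comparison, the library median was subtracted from log2 total signal, which was then fitted with limma 3.58.1 (R 4.3.3). On simulated data of the same size, most of the changes put in did not pass adjustment with this fit. Shares were compared by exact permutation and sign-flip tests (Python 3.11.15, numpy 2.4.6, scipy 1.17.1). Deviations from the genotype means correlated between same-numbered libraries (0.273, 0.314 and 0.476 over 718 regions called in all 6), so replicate numbers were taken as pairing the libraries in an alternative. WT replicate 2 and KO replicate 1 also correlated (0.269), and the pairing comes from the data and not from the labels.

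Regions were named by fixed rules: the 10 strongest called in all 6 libraries, those with peaks in one genotype only (the 5 strongest per genotype), the 3 smallest p-values per direction, the genes with most regions and up to 4 examples per gene list. The regions, gene lists and rules were chosen with earlier results of these data known. The splits by signal, width, coding sequence and CpG island, the tests on islands, and the alternatives that leave out Gm20388 or RefSeq promoters were chosen after seeing the data. 1 of the 10 strongest regions and 1 sequence window that these rules name are not reported here.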

Additional observations from a re-analysis of the deposited data

How the results depend on the processing

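The number of intragenic regions was 641 as reported, 373 when 3 of 4 libraries were required and 1364 when 1 was enough, and between 520 and 612 without single libraries. It was 616 without Gm20388, 595 without regions at RefSeq mRNA promoters and 568 without promoters of noncoding genes. Among regions called in 4 of 4, a replicate 3 peak was present at 10.1% (WT) and 26.3% (KO). Over 4 bins of rising signal the WT shares were 6.67, 6.25, 6.98 and 29.0% and the KO shares 15.0, 23.4, 27.9 and 51.6%. The width difference from outside regions turned to -0.0035 on the log2 scale with promoters of noncoding genes. The mean signal difference from outside regions turned to 0.0035 with 3 of 4 libraries required and ranged from -0.027 to 0.0067 without single libraries. Neither difference passed a test in any setting, though with 5 or 4 libraries none could (smallest exact p of 0.0625 and 0.125). The intragenic share, KO minus WT, ranged from -5.37 to -0.74 percentage points without single libraries (exact p of 0.1 to 0.8). With the replicate block it was -3.50 (exact sign-flip p = 0.25 over 3 pairs, the smallest possible), so no test of 3 pairs could pass 0.05.

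No intragenic region passed adjustment in limma in any of 11 alternatives. The count at an unadjusted p of 0.05 was 15 of 198 as reported (7.58%, against 4.65% of all regions), 20 with the replicate block (10.1% against 6.22%), 0 of the 14 regions called in all 6 libraries with and without the replicate block, 33 of 641 with uncalled regions set to the smallest total of the library (5.15% against 4.75%), and 10 to 28 without single libraries (3.76 to 9.52% against 4.06 to 6.26%), where the lone library of a genotype was assumed to vary like the others. The block changed no other call. Among named regions, Isl1 turned to -0.047 with maximum signal, and with mean signal Dlgap4 turned to -0.053, Ptprg to 0.16 and Ntng2 to 0.035. The cause was not tested. Maximum signals of 6 to 10 fragments at a typical peak limit the precision of every single region.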
